A study of Mus musculus with 14 samples.

Results

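The Dppa genes (developmental pluripotency associated) form a named group rather than a single family. Their 5 protein-coding members listed under the symbols Dppa1, Dppa2, Dppa3, Dppa4 and Dppa5a were taken by gene symbol from a table of 56923 mouse genes, and all 5 were found once. The table held read counts from 14 RNA-seq libraries of 2-cell embryos of ICR mice, 2 libraries for each of 7 conditions. The study's methods give 5 embryos per group, read here as 5 in a library, and more replicates than the table holds. The study asked how lactate and lactylation of lysine 18 on histone H3 bear on the onset of embryonic transcription, the major zygotic genome activation that takes place late in the 2-cell stage.

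Early 2-cell embryos were collected 30 h after hCG and late 2-cell embryos 54 h after hCG. In 5 conditions the medium, applied from 24 h after hCG, held Gne140 at 5 μM, which inhibits lactate dehydrogenase, and NMN at 50 μM, a precursor of NAD+. These were early G&N and late G&N with lactate at 10 mM, early G&N-L and late G&N-L with no lactate, and late G&N-L+Lac-CoA, cultured without lactate from zygotes that, by the study's description, had been injected with lactyl-CoA at 1 mM. By the same description the other 2 conditions were also injected as zygotes, 14 h after hCG, with mRNA of histone H3. It carried the lysine-to-arginine change at position 18 (late H3K18R) or was unchanged (late WT). The medium of the embryos injected with mRNA was not given in the sources used here. The treatment labels of the early libraries differ from their titles (GNE140 & NMN for early G&N-L, GNE140 alone for early G&N), the added compound of late G&N-L+Lac-CoA is labelled CoA, and the count columns of late H3K18R are named K18A. Groups here follow the titles.

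Dppa2 and Dppa4 are DNA-binding SAP-domain proteins that act as partners in one complex, and in embryonic stem cells they act upstream of Dux and the 2-cell genes it switches on. Dppa3, also called Stella or PGC7, is an abundant maternal protein that shields the maternal genome from loss of DNA methylation after fertilization. Dppa5a carries a KH domain, an RNA-binding fold, and marks pluripotent cells. Dppa1 was placed in the group by its expression in pluripotent cells, and less is known of what it does.

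On GRCm39 (mm39, the build of the counts) with GENCODE vM39, Dppa4 lies at chr16:48104062-48114896 and Dppa2 at chr16:48124105-48140618, both on the plus strand and 9.21 kb apart with no protein-coding gene between them. Dppa3 lies at chr6:122586548-122607237 on the plus strand, Dppa5a at chr9:78274031-78278208 on the minus strand and Dppa1 at chr11:46498039-46520088 on the minus strand. The 3 copies named Dppa3-ps (chrX:36807300-36807750), Dppa5b (chr9:78152832-78153417) and Dppa5c (chr9:78179280-78179865) are annotated as transcribed pseudogenes. They are shown because reads from a stretch that a gene and its copy share base for base cannot be placed at one of the loci by sequence. In the lines that follow, from GENCODE vM39 and written 5′ to 3′, capitals mark the bases that differ between a coding sequence and its copy or have no partner there.
Dppa5a, coding bases 1 to 299: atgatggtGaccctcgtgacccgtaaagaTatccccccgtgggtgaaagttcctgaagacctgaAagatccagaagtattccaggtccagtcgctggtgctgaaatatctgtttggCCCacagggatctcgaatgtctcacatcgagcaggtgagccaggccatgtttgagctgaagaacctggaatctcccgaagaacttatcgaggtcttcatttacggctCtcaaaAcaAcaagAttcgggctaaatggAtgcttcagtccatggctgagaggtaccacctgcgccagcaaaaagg
Dppa5c, transcript bases 1 to 297: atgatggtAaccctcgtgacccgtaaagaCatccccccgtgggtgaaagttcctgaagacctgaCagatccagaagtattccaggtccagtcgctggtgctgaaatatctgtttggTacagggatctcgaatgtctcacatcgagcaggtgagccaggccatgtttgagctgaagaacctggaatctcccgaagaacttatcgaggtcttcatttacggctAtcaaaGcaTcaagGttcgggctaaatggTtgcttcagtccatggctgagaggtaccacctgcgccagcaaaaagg
Dppa3, coding bases 3 to 302: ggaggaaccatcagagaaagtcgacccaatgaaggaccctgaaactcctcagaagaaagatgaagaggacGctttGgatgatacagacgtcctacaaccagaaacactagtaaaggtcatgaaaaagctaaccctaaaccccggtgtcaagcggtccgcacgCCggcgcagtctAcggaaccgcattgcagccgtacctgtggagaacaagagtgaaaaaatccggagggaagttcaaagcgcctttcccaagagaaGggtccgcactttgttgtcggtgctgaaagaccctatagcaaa
Dppa3-ps, transcript bases 1 to 300: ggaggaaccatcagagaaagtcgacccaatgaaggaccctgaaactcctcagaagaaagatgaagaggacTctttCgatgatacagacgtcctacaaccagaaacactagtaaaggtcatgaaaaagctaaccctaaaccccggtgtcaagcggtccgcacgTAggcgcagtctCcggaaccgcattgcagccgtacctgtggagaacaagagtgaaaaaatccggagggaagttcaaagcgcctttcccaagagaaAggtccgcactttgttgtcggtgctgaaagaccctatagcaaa
Dppa5a and Dppa5c were identical at 288 of 297 aligned bases (97.0%), and their longest shared run was 104 bases. Dppa5b and Dppa5c were identical over all 348 bases of their transcripts. Dppa3 and Dppa3-ps matched at 440 of 448 aligned bases (98.2%), with a longest shared run of 86 bases, and 6 of their 8 differences are in the stretch printed. Counts at the copies were small beside those of the genes. Dppa3-ps held 0.289% to 0.440% of the Dppa3 count in a library, Dppa5c 0.0550% to 0.753% of the Dppa5a count, and Dppa5b at most 0.206% of it, with 11 of 14 libraries at 0. Adding the copies to Dppa3 and Dppa5a, an alternative chosen after seeing the data, moved no call of either gene. In the RefSeq table of promoter windows around gene starts (GRCm38.p6), Dppa1 had an entry, and Dppa2, Dppa3, Dppa4 and Dppa5a had none. None of 5 motifs searched on both strands was in the Dppa1 window: GGGCGG is held by 35.7% of all 32851 windows, CCAAT by 37.4%, TATAAA by 13.6%, CACGTG by 7.15% and GGATTA by 7.06%.

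Library totals ran from 20350427 to 61275465 counts, so even the lowest member count, 159 for Dppa4 in an early G&N-L library, was above the 3 counts used as a floor. Levels are given as CPM, counts brought to a common library size after TMM scaling over all 14 libraries. They are shares of a library made from 5 embryos. As in any bulk sample, RNA from fewer of these cells and less RNA per cell cannot be told apart. The 2 libraries of a condition differed by more than counting noise in every condition. The labels do not say whether they came from separate matings, so the tests measure the spread between libraries, which may be technical. A list of 19 genes typical of the late 2-cell stage (Zscan4 genes, Zfp352, Usp17l genes and others) summed to 105 to 235 CPM in the early libraries and 1850 to 3691 CPM in the late ones. A list of 20 oocyte transcripts summed to 24781 to 34963 CPM in early and 4375 to 22442 CPM in late libraries. Such sums lean on abundant transcripts. Btg4 alone had a mean of 16845 CPM in early G&N, 11380 CPM in late G&N-L, 7909 CPM in late G&N and 1300 CPM in late WT. Markers of cumulus cells, which surround the oocyte, summed to at most 40.9 CPM, and 3 of 15 of them, Amh, Inhba and Inhbb, had no count in any library. The others had counts in some libraries. Cyp19a1 had a mean of 18.1 CPM in both early conditions, and Tnfaip6 and Amhr2 reached 19.2 and 18.2 CPM in a library.

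The members spanned more than 3 orders of magnitude and fell into different stage patterns. Dppa3 alone took 0.919% to 2.03% of all counts in a library. Per kilobase of the canonical transcript, in early G&N embryos, Dppa3 stood at 22382 CPM per kb, Dppa5a at 62.8, Dppa2 at 48.9, Dppa1 at 33.3 and Dppa4 at 7.73. In late WT embryos the order was Dppa3 at 16925 CPM per kb, Dppa5a at 2310, Dppa4 at 377, Dppa2 at 149 and Dppa1 at 7.23. On all annotated exons the early order was Dppa3 at 13086 CPM per kb, Dppa2 at 44.6, Dppa1 at 30.2, Dppa5a at 18.1 and Dppa4 at 3.62, so the place of Dppa5a among early levels depends on the exons counted, while the late WT order was the same. By either length Dppa4 moved from the lowest of the 5 to above Dppa2, and Dppa1 moved to the lowest place.

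**Figure D1:**
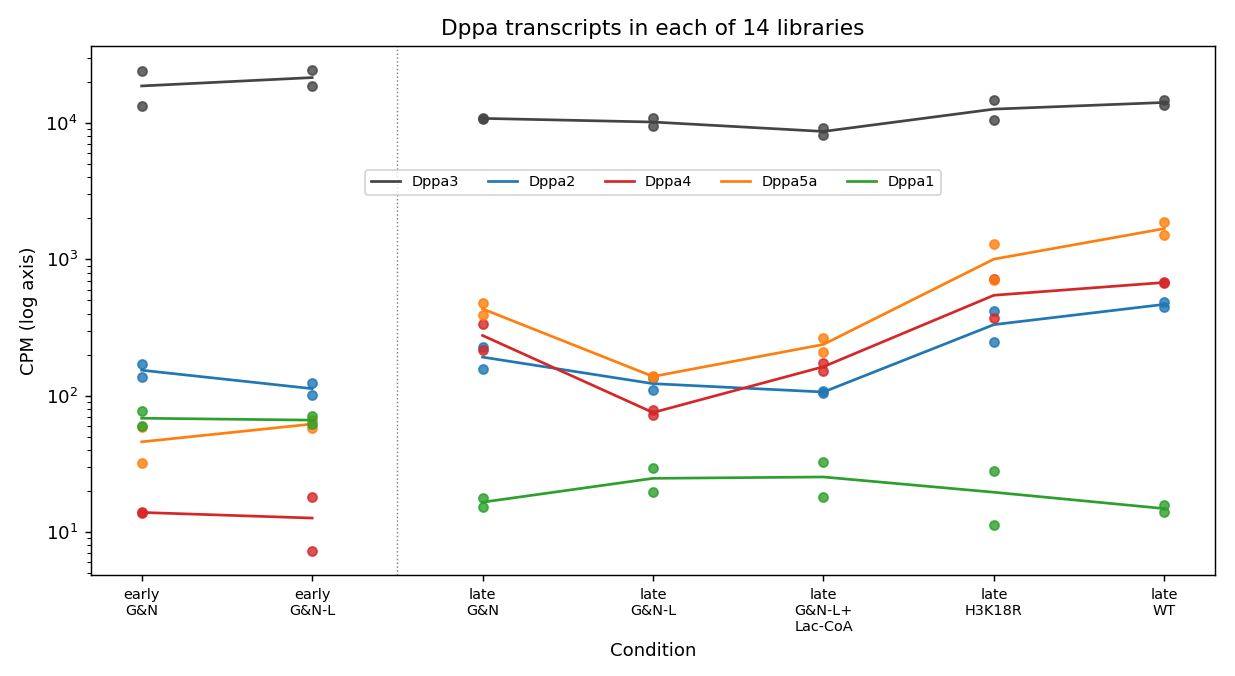
CPM of the 5 Dppa genes (log axis) in each of 14 libraries, by condition; points are libraries and lines join the condition means within the early and the late stage. Dppa3 lies between 8150 and 24590 CPM in every library, Dppa4 and Dppa5a are lowest in the 4 early libraries, and both dip in late G&N-L among the late conditions.

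Dppa2 and Dppa3, grouped beforehand as maternal members, varied less across the 7 conditions than Dppa4 and Dppa5a did. The highest condition mean was 2.49 times the lowest for Dppa3 and 4.399 times for Dppa2, against 36.8 times for Dppa5a and 53.7 times for Dppa4. Dppa1 varied 4.61-fold in the opposite sense to Dppa4 and Dppa5a. Dppa2 did not share the fall of Dppa3 from early to late. Its mean was highest in late WT (468 CPM) and late H3K18R (332 CPM), against 154 CPM in early G&N and 113 CPM in early G&N-L. Late WT and late H3K18R are described as injected and their medium was not given, so stage cannot be told apart from these. In the media of the early groups, the late means of Dppa2 were 192 CPM (late G&N) and 122 CPM (late G&N-L). In a test of any difference over the 7 conditions, all 5 members passed (edgeR quasi-likelihood F test, Benjamini-Hochberg adjusted p = 3.2e-06 for Dppa5a, 7.1e-06 for Dppa4, 0.00041 for Dppa2, 0.0058 for Dppa1 and 0.015 for Dppa3), where 23.7% of 25041 genes tested passed. Without TMM the adjusted p of Dppa3 was 0.10, and without replicate 1 of early G&N-L it was 0.063. Over the 5 late conditions alone, Dppa5a (adjusted p = 0.0031), Dppa4 (0.0052) and Dppa2 (0.0070) passed and Dppa3 (0.38) and Dppa1 (0.64) did not, against 7.81% of 23611 genes. Without replicate 2 of late WT, the adjusted p of Dppa2 in that test was 0.051.

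From early to late, all 5 members passed the test when the mean of the 5 late conditions was set against the mean of the 2 early ones (14 libraries, edgeR), where 36.6% of 25041 genes passed, 4978 higher and 4198 lower in late embryos. Of the late conditions 3 are described as injected and of the early ones none is. Dppa4 rose by 4.31 ± 0.31 (log2 fold change ± SE, adjusted p = 3.8e-07). Dppa5a rose by 3.16 ± 0.24 (adjusted p = 5.5e-07). Dppa2, the neighbour and partner of Dppa4, rose by 0.66 ± 0.18 (adjusted p = 0.012), against a median of 0.22 over all genes. Dppa3 fell by 0.85 ± 0.15 on the log2 scale (adjusted p = 0.00071) and Dppa1 fell by 1.77 ± 0.25 (adjusted p = 0.00013). The call on Dppa2 was lost without replicate 2 of early G&N-L (adjusted p = 0.061) or replicate 2 of early G&N (0.058), whereas the calls on Dppa1, Dppa3, Dppa4 and Dppa5a held with any 1 library left out.

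The library values show how clean these shifts were. Dppa4 had 18.04 and 7.21 CPM in early G&N-L and 13.9 and 13.8 CPM in early G&N, and 72.2 to 719 CPM (median 276) over the 10 late libraries. Dppa5a had 57.4 and 66.3 CPM in early G&N-L and 59.3 and 32.3 CPM in early G&N, against 137 to 1868 CPM (median 433) in late libraries. For both genes no late library was as low as any early one, which held for 11.8% of all genes tested. Dppa1 had 70.3 and 61.9 CPM in early G&N-L and 77.1 and 59.4 CPM in early G&N, and 11.3 to 32.4 CPM (median 17.9) in the late libraries, again with no overlap but in the opposite direction, as in 8.54% of genes. Dppa3 had 24590 and 18669 CPM in early G&N-L and 13278 and 24279 CPM in early G&N, and 8150 to 14834 CPM in the late ones. The ranges of Dppa3 overlapped through replicate 1 of early G&N, which lay below both late WT libraries. Dppa2 had 124 and 101 CPM in early G&N-L, 170 and 137 CPM in early G&N and 105 to 488 CPM in late libraries, so its ranges overlapped widely.

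Within medium matched by the titles, Dppa4, Dppa5a and Dppa1 changed in the same direction as over all conditions. Dppa3 fell in both comparisons, though only its fall without lactate passed, and Dppa2 passed in neither. With lactate (late G&N against early G&N), Dppa4 rose by 4.24 ± 0.35 (log2 fold change ± SE, adjusted p = 0.0062), Dppa5a rose by 3.20 ± 0.34 (0.0090) and Dppa1 fell by 2.11 ± 0.32 (0.018), while 13.7% of 19443 genes passed. Dppa3 differed by -0.90 ± 0.40 (adjusted p = 0.18) and Dppa2 by 0.25 ± 0.28 (0.60). With no filter on low counts Dppa3 passed here (adjusted p = 0.045 in edgeR). Without lactate (late G&N-L against early G&N-L), Dppa4 rose by 2.53 ± 0.46 (adjusted p = 0.031), Dppa5a rose by 1.10 ± 0.20 (0.032), Dppa1 fell by 1.48 ± 0.28 (0.035) and Dppa3 fell by 1.14 ± 0.15 (0.015), while 11.8% of 18604 genes passed. Dppa2 differed by 0.06 ± 0.20 (adjusted p = 0.88). The change of Dppa3 without lactate differed from that with lactate by -0.28 ± 0.44 (adjusted p = 0.99 in edgeR). These fits of 4 libraries were fragile. Without lactate the edgeR call on Dppa1 was lost without TMM (adjusted p = 0.060) and with all 14 libraries in one fit (0.077). With replicate number as a block, the calls without lactate on Dppa1 (0.059) and Dppa5a (0.066) were lost. Leaving out a library leaves a condition with 1 library, so a lost call cannot be read as a trait of a member. With each library left out in turn, the log2 fold change with lactate was 3.89 to 4.52 for Dppa4 and 2.94 to 3.69 for Dppa5a. Without lactate it was 2.05 to 3.27 for Dppa4 and 0.95 to 1.26 for Dppa5a.

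**Figure D2:**
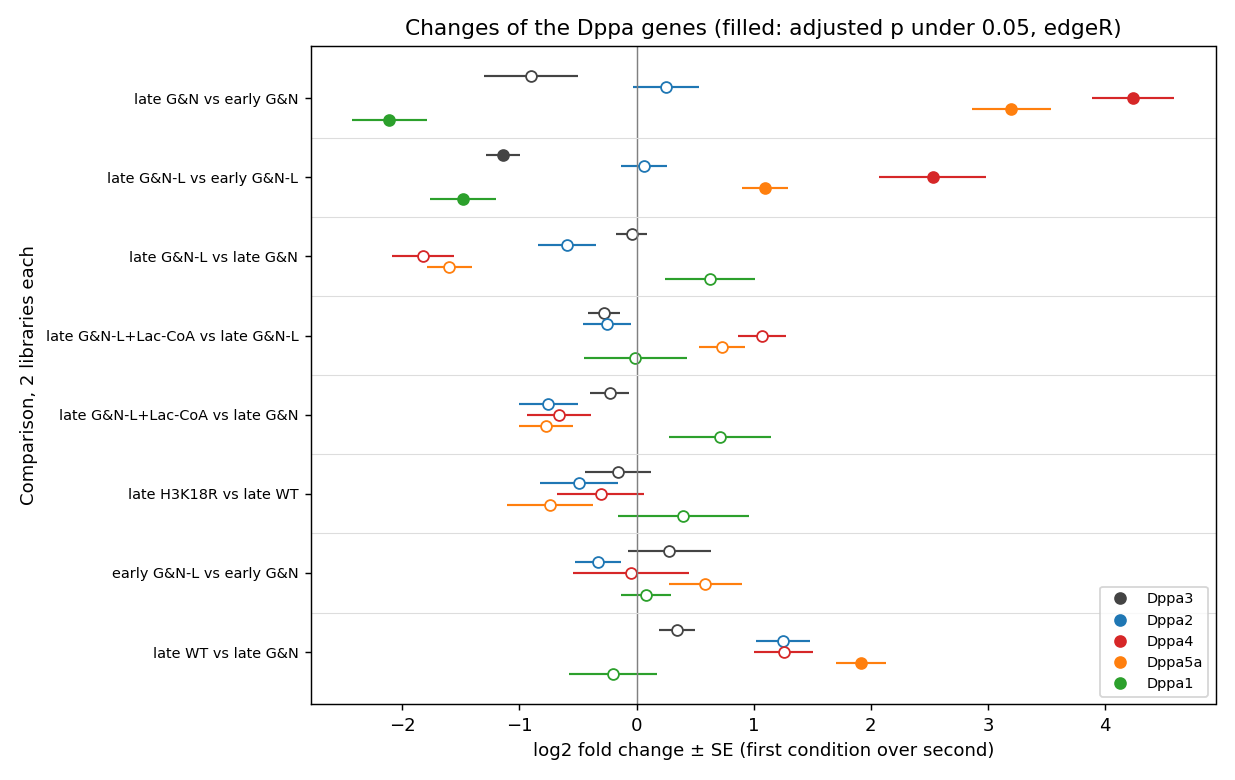
Log2 fold change ± SE (x axis) of the 5 Dppa genes in 8 comparisons of 2 conditions (y axis), each from its own 4 libraries; filled circles passed an adjusted p of 0.05 in edgeR. Filled circles appear in the 2 stage comparisons and once in late WT against late G&N, and the comparisons share libraries with each other.

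Lactate removal in late embryos addressed whether the zygotic rise depends on lactate in the medium. Dppa4 had 78.04 and 72.2 CPM in late G&N-L against 215 and 338 CPM in late G&N, and Dppa5a had 140 and 137 CPM against 388 and 478 CPM. Dppa2 had 110 and 135 CPM in late G&N-L against 156 and 227 CPM in late G&N. In these 3 genes both libraries without lactate lay below both with it, as in 24.9% of all genes tested. Dppa3 had 9477 and 10929 CPM against 10912 and 10794 CPM, which overlap. Dppa1 had 19.7 and 29.7 CPM against 15.3 and 17.7 CPM, higher in both libraries without lactate, as in 18.6% of genes.

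The log2 fold changes were -1.82 ± 0.27 for Dppa4, -1.60 ± 0.19 for Dppa5a, -0.59 ± 0.25 for Dppa2, -0.04 ± 0.14 for Dppa3 and 0.63 ± 0.38 for Dppa1, beside a median of -0.02 over 19481 genes. In edgeR no member and 0% of all genes passed an adjusted p of 0.05 (adjusted p = 0.31 for Dppa4 and Dppa5a, 0.45 for Dppa2, 0.98 for Dppa3 and 0.66 for Dppa1). At an unadjusted p under 0.05, Dppa4 and Dppa5a were among 2332 genes (12%). Dppa5a ranked at place 10 and Dppa4 at place 37 of all genes by p. DESeq2 called both, among 916 genes (4.7%), with an adjusted p of 5.1e-07 for Dppa4 and 1.2e-08 for Dppa5a. They also passed in edgeR with a filter of at least 10 counts in every library (adjusted p = 0.019 for both), where 114 of 14082 genes passed. The sum of the oocyte list, to which Btg4 contributed much, moved the other way. It was 19524 and 22442 CPM in late G&N-L and 15819 and 17306 CPM in late G&N. The part of that shift in the result was not tested.

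By the titles the early groups also differed by lactate alone, while the treatment labels give NMN for early G&N-L only. Between them (early G&N-L against early G&N) the log2 fold changes were -0.05 ± 0.49 for Dppa4, 0.59 ± 0.32 for Dppa5a, -0.33 ± 0.20 for Dppa2, 0.28 ± 0.36 for Dppa3 and 0.08 ± 0.21 for Dppa1. No member passed, as for 0% of 17343 genes, and none was among the 784 genes (4.52%) with an unadjusted p under 0.05, nor among the 37 genes called by DESeq2. The libraries overlapped for Dppa1, Dppa3, Dppa4 and Dppa5a, and both early G&N-L libraries lay below both early G&N libraries for Dppa2, as in 21.2% of genes.

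If the treatment labels of the early groups hold, the early effect includes a difference in NMN. The difference between the late and the early effect was tested as an interaction over 8 libraries. It was -2.15 ± 0.39 for Dppa5a, -1.74 ± 0.55 for Dppa4, -0.23 ± 0.34 for Dppa2, -0.28 ± 0.44 for Dppa3 and 0.58 ± 0.40 for Dppa1 on the log2 scale. In edgeR 0% of 22287 genes passed (adjusted p = 0.49 for Dppa5a and 0.64 for Dppa4). Dppa5a and Dppa4 were among 1683 genes (7.55%) with an unadjusted p under 0.05. DESeq2 called Dppa5a (adjusted p = 0.00014) among 224 genes (1.01%) and did not call Dppa4.

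Embryos given lactyl-CoA and no lactate were set against both late media to ask whether it can stand in for lactate. No injection is stated for late G&N-L and late G&N, so lactyl-CoA and the injection that delivered it cannot be told apart here. Dppa4 had 174 and 152 CPM in late G&N-L+Lac-CoA, above both late G&N-L libraries (78.04 and 72.2 CPM) and below both late G&N libraries (215 and 338 CPM). Dppa5a likewise lay between them, with 209 and 266 CPM. Of all genes tested, 24.8% lay above late G&N-L with no overlap. Dppa2 had 105 and 108 CPM against 110 and 135 CPM in late G&N-L, below both. Dppa3 had 8150 and 9256 CPM, the lowest mean of any condition and also below late G&N-L, as were 22% of genes. Dppa1 had 32.4 and 18.1 CPM. Against late G&N, Dppa2, Dppa3, Dppa4 and Dppa5a were lower with no overlap, as were 22.2% of genes, and Dppa1 was higher, as were 17.4%.

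Relative to late G&N-L, the log2 fold changes were 1.07 ± 0.20 for Dppa4, 0.73 ± 0.20 for Dppa5a, -0.25 ± 0.20 for Dppa2, -0.28 ± 0.13 for Dppa3 and -0.01 ± 0.44 for Dppa1. In edgeR 0% of 19610 genes passed (adjusted p = 0.29 for Dppa4 and 0.30 for Dppa5a), and Dppa4 and Dppa5a were among 2609 genes (13.3%) with an unadjusted p under 0.05. DESeq2 called both, with an adjusted p of 0.00092 for Dppa4 and 0.036 for Dppa5a, among 1183 genes (6.03%). Relative to late G&N, the log2 fold changes were -0.66 ± 0.27 for Dppa4, -0.77 ± 0.23 for Dppa5a, -0.75 ± 0.25 for Dppa2, -0.23 ± 0.17 for Dppa3 and 0.71 ± 0.44 for Dppa1. Here too 0% of 19613 genes passed in edgeR. Dppa2 and Dppa5a were among the 1670 genes (8.51%) with an unadjusted p under 0.05, and DESeq2, which called 471 genes, called no member. The summed oocyte list was 16029 and 11974 CPM in late G&N-L+Lac-CoA, below both late G&N-L libraries. The part of that shift in the result was not tested.

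The ratio of Dppa2 to Dppa4 counts within a library does not depend on how libraries are scaled. It was 6.89 and 13.98 in early G&N-L and 12.2 and 9.92 in early G&N, so Dppa2 counts outnumbered those of its partner. In the late conditions it was 0.728 and 0.672 in late G&N, 0.671 and 0.710 in late WT, 0.579 and 0.666 in late H3K18R and 0.603 and 0.708 in late G&N-L+Lac-CoA, 8 libraries between 0.579 and 0.728. In late G&N-L it was 1.41 and 1.86. The mean log2 ratio was 0.70 ± 0.28 (SD, n = 2) in late G&N-L and -0.52 ± 0.08 in late G&N, and with 2 libraries against 2 an exact permutation test cannot go below p = 0.333. Per kilobase the order of Dppa2 and Dppa4 in late G&N-L depended on the exons counted, with 38.9 CPM per kb for Dppa2 and 41.8 for Dppa4 on the canonical transcripts but 35.5 and 19.6 on all annotated exons.

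**Figure D3:**
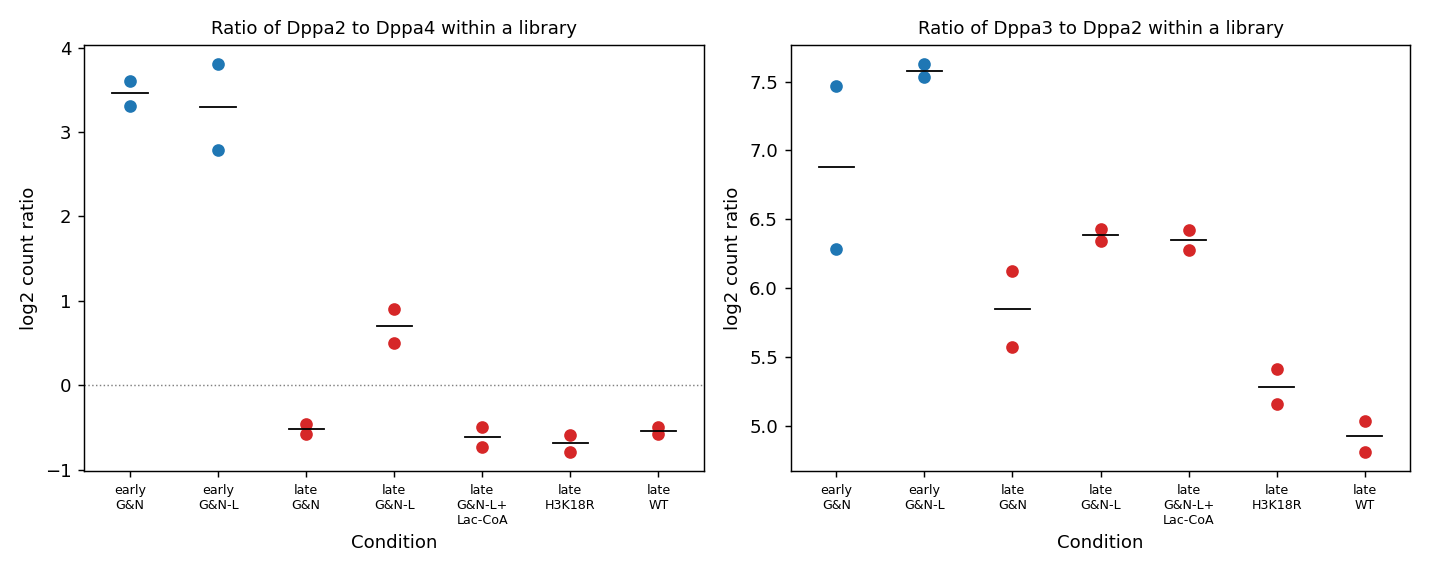
Log2 ratio of counts within a library, Dppa2 to Dppa4 on the left and Dppa3 to Dppa2 on the right, by condition; points are libraries (blue early, red late) and bars are condition means. On the left, 8 late libraries lie just below 0 and the 2 late G&N-L libraries lie at 0.50 and 0.90.

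The ratio of Dppa3 to Dppa2 was 198 and 185 in early G&N-L and 86.02 and 81.2 in late G&N-L. It was lowest in late WT (32.8 and 28.1). In late H3K18R it was 35.6 and 42.5, in late G&N 69.8 and 47.5, in late G&N-L+Lac-CoA 77.7 and 85.9, and in early G&N 77.9 and 177.

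Late H3K18R embryos were set against late WT embryos, the study's control for the change at lysine 18. The transcript H3c1 was at 2091 and 3655 CPM in late H3K18R and at 0.174 and 0.0925 CPM in late WT, and at most 1.72 CPM in the other libraries, so the level of this H3 gene sets late H3K18R apart and does not show the injection of late WT. Whether both groups carried a like amount of added H3 mRNA is thus not shown, and lysine 18 cannot be told apart from that amount. Dppa5a had 1300 and 711 CPM in late H3K18R against 1500 and 1868 CPM in late WT, and Dppa2 had 416 and 248 CPM against 448 and 488 CPM. For both genes the H3K18R libraries lay below the WT libraries, as in 19.4% of all genes tested. Dppa4 had 719 and 372 CPM against 668 and 687 CPM, on either side of the WT values. Dppa3 had 14834 and 10546 CPM against 14710 and 13689 CPM, and Dppa1 had 11.3 and 27.8 CPM against 15.7 and 13.97 CPM.

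The log2 fold changes were -0.74 ± 0.37 for Dppa5a, -0.49 ± 0.33 for Dppa2, -0.31 ± 0.37 for Dppa4, -0.16 ± 0.28 for Dppa3 and 0.40 ± 0.56 for Dppa1. No member passed in edgeR (1 of 17704 genes did, 0.00565%; adjusted p from 0.83 to 0.99 for the members), none was among the 1141 genes (6.44%) with an unadjusted p under 0.05, and none was among the 118 genes DESeq2 called. Each late H3K18R library moved these values by over 1.5 times. Without replicate 2 the log2 fold change was -0.37 for Dppa5a, -0.16 for Dppa2 and 0.090 for Dppa4, and without replicate 1 it was -1.25, -0.92 and -0.87. Replicate 2 also held a summed oocyte list of 9942 CPM, against 4841 CPM in replicate 1 of late H3K18R and 4641 and 4375 CPM in late WT, and its part in the result was not tested.

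Set against each other over 8 libraries that the contrasts do not share, lactate removal and H3K18R differed by -1.51 ± 0.47 (log2) for Dppa4, -0.85 ± 0.42 for Dppa5a, -0.10 ± 0.42 for Dppa2, 0.12 ± 0.33 for Dppa3 and 0.21 ± 0.73 for Dppa1. In edgeR 0% of 22515 genes passed (adjusted p = 0.71 for Dppa4 and 0.72 for Dppa5a). Dppa4 was among 1542 genes (6.85%) with an unadjusted p under 0.05, and DESeq2, which called 165 genes, called no member. The median over all genes was -0.24.

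Late WT embryos, described as injected, were also set against late G&N embryos. In both late WT libraries Dppa2, Dppa3, Dppa4 and Dppa5a were above both late G&N libraries, as were 28.2% of all genes tested. Dppa5a was higher by 1.92 ± 0.21 (log2, adjusted p = 0.041 in edgeR), where 4.62% of 18986 genes passed. Dppa4 differed by 1.26 ± 0.25 (adjusted p = 0.057) and Dppa2 by 1.25 ± 0.23 (0.052), and DESeq2 called Dppa2, Dppa4 and Dppa5a among 21.6% of genes. Dppa3 differed by 0.34 ± 0.15 (adjusted p = 0.23) and Dppa1 by -0.20 ± 0.38 (0.81). The edgeR call on Dppa5a needed all 4 libraries. Each fit without a library leaves 1 library in a condition, so the lost call cannot be read as a trait of Dppa5a. Its log2 fold change ran from 1.75 to 2.14 in those fits. The summed oocyte list was 4641 and 4375 CPM in late WT against 15819 and 17306 CPM in late G&N. By the study's description late WT differs from late G&N by injection and by the H3 mRNA, which H3c1 did not show. Any difference in medium was not given, and these cannot be told apart.

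Taking the conditions in order of level, Dppa4 and Dppa5a shared the same first 5 places, late WT, late H3K18R, late G&N, late G&N-L+Lac-CoA and late G&N-L, followed by the early conditions. Libraries of neighbouring conditions overlapped for Dppa4 between late WT and late H3K18R and between the 2 early conditions, and for Dppa5a between the 2 early conditions. For Dppa2 late WT came first, then late H3K18R and late G&N, with no overlap among these, and from late G&N down the libraries of neighbouring conditions overlapped except between early G&N and late G&N-L. Dppa3 ran from early G&N-L and early G&N through late WT to late G&N-L+Lac-CoA, and of its neighbouring places only the last 2, late G&N-L and late G&N-L+Lac-CoA, did not overlap. For Dppa1 the libraries of neighbouring conditions overlapped except between the early conditions and the late ones.

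Across the 7 condition means of log2 CPM, Pearson's r was 0.97 between Dppa4 and Dppa5a, 0.83 between Dppa2 and Dppa5a and 0.72 between Dppa2 and Dppa4. It was 0.06 between Dppa2 and Dppa3, and -0.97 between Dppa1 and Dppa4. These are descriptions over 7 points, of which 5 are late conditions. Among 7687 genes with a mean of at least 10 CPM, those most like Dppa4 were Tnpo3, Xiap and Cars2 (r = 0.999 each), and those most like Dppa5a were Rnf7, the unnamed gene ENSMUSG00000121139 and Gtf2h5 (r = 0.997 each). The nearest patterns to Dppa2 were Arhgap11a (r = 0.991), Rnf6 (0.989) and Rpl17-ps10 (0.987), to Dppa3 Mrpl35 (0.995), Eef1e1 (0.991) and Psmb2 (0.987), and to Dppa1 Chchd1 (0.998), Psma7 (0.996) and D6Wsu163e (0.995).

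Dppa2 and Dppa4 are each other's neighbours, and over all 14 libraries both rose from early to late. Within matched medium Dppa2 passed in neither comparison, with 0.25 ± 0.28 with lactate and 0.06 ± 0.20 without (log2 ± SE). Over all 14 libraries, 3 other neighbours moved against the member beside them. Ooep, an oocyte KH-domain gene 5.16 kb from Dppa5a on the same strand, went from 1485 ± 444 CPM (SD, n = 2) in early G&N to 111 ± 16.7 CPM in late G&N, and fell by 4.08 ± 0.20 (log2, adjusted p = 2.9e-08 in edgeR) from early to late while Dppa5a rose. Nectin3, a cell adhesion gene 1785 kb below Dppa4, fell by 2.14 ± 0.15 (adjusted p = 2.6e-07) while Dppa4 rose. Timd2, 39.7 kb from Dppa1, rose by 8.99 ± 0.70 (adjusted p = 7.9e-07) while Dppa1 fell, and went from 171 ± 36.5 CPM in late G&N-L to 759 ± 331 CPM in late G&N. Nanog and Apobec1, on either side of Dppa3, were at a mean of at most 2.903 CPM in every condition, Gsta2 beside Dppa5a at most 0.647 CPM and Gm5485 beside Dppa2 at most 1.62 CPM. Timd6, the other neighbour of Dppa1, was not analysed here.

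**Figure D4:**
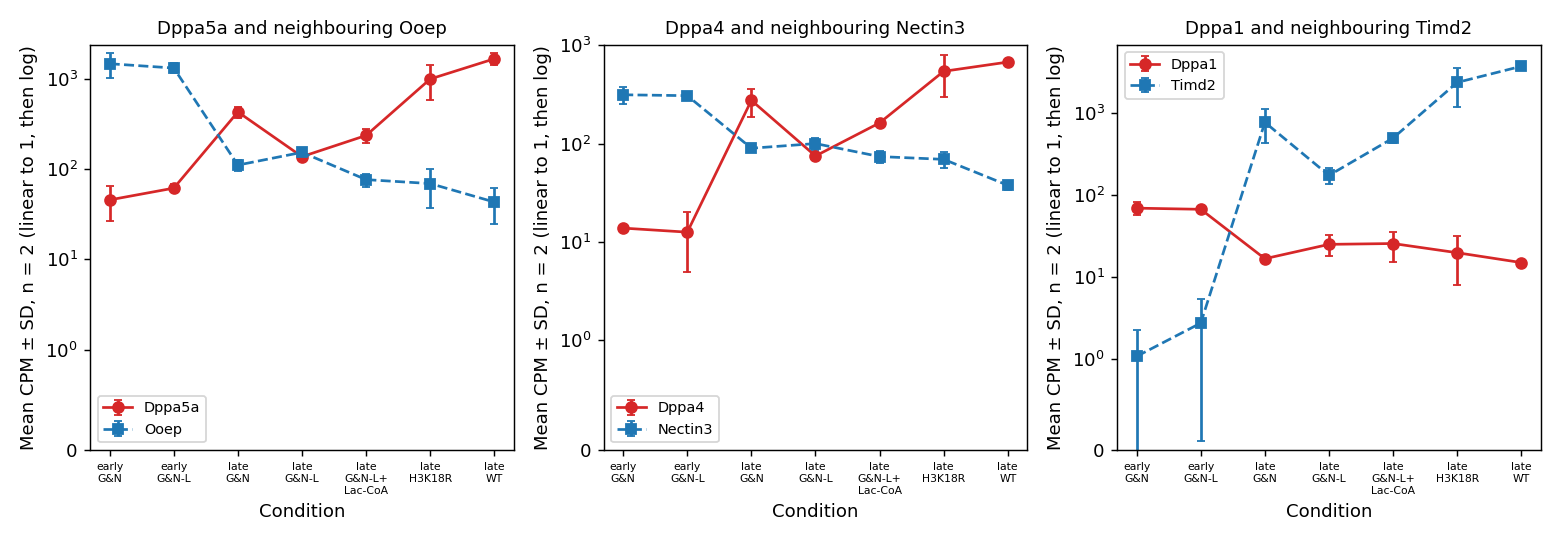
Mean CPM ± SD (n = 2, linear up to 1, then log) by condition for Dppa5a and Ooep, Dppa4 and Nectin3, and Dppa1 and Timd2. The second gene of each pair is the nearest protein-coding gene on 1 side of the first, at 5.16, 1785 and 39.7 kb. In each pair one gene is high in the early conditions and the other in the late ones.

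Other gene groups placed the members beside the transcripts of their stage. From early to late (14 libraries, edgeR), 16 of 19 genes of the 2-cell list rose and none fell, with a list median of 5.54. Among them were Zscan4a with a log2 fold change of 6.16 ± 0.49, Zfp352 with 5.79 ± 0.48, Usp17lc with 3.96 ± 0.35, and Tdpoz4, which had no count in the 4 early libraries. Of 20 oocyte transcripts 14 fell and 1, Zp3, rose, with a median of -1.59. Those with the smallest p were Ooep at -4.08 ± 0.20, the maternal-effect gene Nlrp5 at -3.23 ± 0.19, the oocyte linker histone H1f8 at -3.29 ± 0.23 and the histone chaperone Npm2 at -1.87 ± 0.17. Dppa1 and Dppa3 thus shared the direction of most oocyte transcripts, and Dppa4 and Dppa5a that of the 2-cell genes. Dppa2 was higher in late embryos over all 14 libraries but passed in neither comparison within matched medium.

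Of 19 pluripotency genes 10 rose and 3 fell from early to late, with a median of 1.48. They included Zfp42 at 3.62 ± 0.31, Klf5 at 7.84 ± 0.69 and Klf17 at -1.29 ± 0.18, and Fgf4, which had no count in the 4 early libraries. Of 14 genes of DNA methylation tested, the process Dppa3 bears on, 4 rose and 6 fell, with a median of -0.14. Dnmt1, the maintenance methyltransferase, was at -2.37 ± 0.18 and the imprint-binding Zfp57 at -2.999 ± 0.22, whereas Tet1, which oxidizes methylcytosine, was at 2.83 ± 0.37 and the corepressor Trim28 at 1.60 ± 0.24. Among 5 other KH-domain genes of oocytes and early embryos, Ooep and Khdc1b fell and Khdc1c rose (median -0.63). Among 10 cumulus markers tested, none above 22.9 CPM in a library, 2 rose and 4 fell (median -1.85).

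On lactate removal in late embryos, no gene of these lists passed in edgeR, and 51% of all 19481 genes were lower in late G&N-L. Of 18 pluripotency genes tested 15 were lower in late G&N-L (median log2 fold change -1.19), among the most abundant Klf17 at -0.72 ± 0.22 and Sall4 at -0.08 ± 0.24. Of 18 genes of the 2-cell list 9 were lower (median 0.02), with Zscan4d at 0.38 ± 0.20 and Zfp352 at 0.19 ± 0.17. Of 20 oocyte transcripts 5 were lower (median 0.30), with Btg4 at 0.58 ± 0.14 and Oosp1 at 0.04 ± 0.16, and of 14 DNA methylation genes 10 were lower (median -0.32), with Zfp57 at 0.22 ± 0.22 and Tet3 at -0.38 ± 0.35. The 5 other KH-domain genes were all higher (median 0.09), with Khdc1b at 0.24 ± 0.17 and Ooep at 0.51 ± 0.24, while Dppa5a, which shares their fold, was at -1.60 ± 0.19. Of 6 cumulus markers tested 4 were lower (median -1.61).

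With lactyl-CoA added, 16 of 18 genes of the 2-cell list were higher than in late G&N-L (median 0.52), 13 of 18 pluripotency genes were higher (median 0.85) and 19 of 20 oocyte transcripts were lower (median -0.63), beside a median of -0.01 and 50.4% lower over all genes, and none passed in edgeR. In late H3K18R against late WT none passed either, with 11 of 18 genes of the 2-cell list higher (median 0.23), 12 of 18 pluripotency genes lower (median -0.11) and 16 of 20 oocyte transcripts higher (median 0.42), beside a median of 0.03 and 48.6% lower over all genes. Duxf3, the Dux copy in the table, reached at most 1.38 CPM in any library and had no count in 7 of 14.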

How the data were processed

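RNA-seq was measured in 14 libraries of mouse 2-cell embryos, and the groups follow the sample titles. The authors deposited raw counts per gene, made according to their methods and processing notes with FastQC, Trim Galore, HISAT2 on mm39 and featureCounts (versions, strand setting and treatment of reads with several locations are not given in the sources used here). cDNA was amplified by PCR without molecular identifiers, so floors cover counting error only. Every count column was used.

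Each comparison was fitted on the libraries of its own conditions with edgeR 4.0.16 (R 4.3.3): genes kept by filterByExpr, TMM scaling, quasi-likelihood test, Benjamini-Hochberg adjustment over all genes, threshold 0.05. The SE is the log2 fold change divided by the root of the F statistic. CPM uses TMM sizes over all 14 libraries, and lengths come from the Ensembl canonical transcript of GENCODE vM39, whose gene models are newer than those counted. The fitting code was tested on simulated data. Alternatives were DESeq2 1.42.0, other scalings and filters, a replicate block, all libraries in one fit, and each library left out.

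Named genes were the 5 members, their copies, the nearest protein-coding neighbours, the 3 genes most like each member across conditions, and members of 6 lists: 2-cell genes, oocyte transcripts, pluripotency, DNA methylation, other KH-domain genes and cumulus markers. From each list the rule took up to 4 genes past the threshold with the smallest p, or the 2 of highest mean CPM where none passed. The cumulus genes and some others that the rule takes are given as counts, and Zp3 was added after its values were seen. The members and lists were chosen with earlier results of these data known.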

Additional observations from a re-analysis of the deposited data

How the results depend on the processing

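The number of members past an adjusted p of 0.05 in edgeR changed as follows. For late G&N-L against late G&N it went from 0 to 2 (Dppa4 and Dppa5a) in DESeq2, with no filter on low counts and with at least 10 counts in every library. For late G&N-L+Lac-CoA against late G&N-L it went from 0 to 2 in DESeq2. The interaction of stage and lactate went from 0 to 1 in DESeq2 and to 2 with no filter. For late WT against late G&N it went from 1 to 3 in DESeq2, without TMM and under both filters, and to 2 with all 14 libraries in one fit. With replicate number as a block it went from 1 to 2 there and from 4 to 2 for late G&N-L against early G&N-L, and no other count moved by over 1.5 times. Samples with the same number did not deviate together (21 correlations between conditions, -0.044 to 0.036), so they share only a number. With a library left out, a condition keeps 1 library. For comparisons of 2 conditions a change in the count could then not be read as a trait of the members, and sizes of change are given instead.

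Signs turned in these cases, none of them called. Dppa3 in late G&N-L against late G&N was 0.014 in DESeq2 and with its size factors, and ran from -0.13 to 0.042 with each library left out. Dppa1 in early G&N-L against early G&N was -0.047 with all 14 libraries in one fit, and in late G&N-L+Lac-CoA against late G&N-L it was 0.094 without TMM, 0.033 with all 14 libraries and -0.51 to 0.36 with each library left out. Other ranges on leaving out a library were -0.75 to 0.42 for Dppa4 and -0.15 to 0.92 for Dppa3 in early G&N-L against early G&N; in late H3K18R against late WT, -0.39 to 0.91 for Dppa1, -0.43 to 0.067 for Dppa3 and -0.87 to 0.090 for Dppa4. For Dppa2 they were -0.029 to 0.49 in late G&N against early G&N, -0.034 to 0.22 in late G&N-L against early G&N-L, -0.47 to 0.051 in the interaction and -0.40 to 0.29 in lactate removal against H3K18R. For Dppa3 they were -0.85 to 0.15 in the interaction and -0.0033 to 0.35 in lactate removal against H3K18R, where Dppa1 ran from -0.32 to 1.12. The cause was not tested. Without TMM the median of all genes moved by 0.37 for late G&N against early G&N, by 0.365 for late G&N-L against early G&N-L and by 0.31 over both stages. The share of higher genes among the calls was then 76.4%, 72.6% and 64.7%, against 1591 higher and 1063 lower, 1111 and 1092, and 4978 and 4198 with TMM. DESeq2 called more genes than edgeR: 5959 against 2654 for late G&N against early G&N, 5218 against 2203 for late G&N-L against early G&N-L, 4104 against 877 for late WT against late G&N, 118 against 1 for late H3K18R against late WT, 9392 against 5928 over the 7 conditions and 4793 against 1844 over the late ones. With no filter, late G&N-L against late G&N had 317 calls of 28941 genes, early 42 of 26885 and late H3K18R against late WT 78 of 27123. The interaction had 361 of 32454 and late WT against late G&N 3668 of 28129. For late WT against late G&N, 2971 of 13033 genes passed with at least 10 counts in every library. Without TMM 1058 of 18986 passed there, with all 14 libraries 1281 of 25041 and with the block 804 of 18986. With the block, late G&N-L against early G&N-L had 1391 of 18604. Of 892 values of single members under an alternative, 811 kept their direction and their side of the threshold. With 2 libraries a condition, the precision is limited by the number of libraries.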

Other observations

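The annotated pseudogenes Dppa5b and Dppa5c, whose transcripts are identical, were counted most often in replicate 2 of late WT, with 125 counts for Dppa5b and 456 for Dppa5c. Replicate 1 of late WT held 1 and 42 counts. The Dppa5a counts of replicates 2 and 1 were 60574 and 34487. The copy share of Dppa5a was thus higher in 1 of the 2 late WT libraries, and the other conditions held 3 to 58 counts of Dppa5c in a library.

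Gdf3, a growth factor gene annotated on the strand opposite to Dppa3 and overlapping it in GENCODE vM39, had 0 to 171 counts in a library, at most 0.0536% of the Dppa3 count.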
